A study of Mus musculus with 6 samples.

Results

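The genes of 10 transcription factors of blood stem cell identity and self-renewal were chosen by symbol and followed in 6 RNA sequencing libraries: Tal1, Lmo2, Gata2, Runx1, Erg, Meis1, Hoxa9, Hlf, Mecom and Hoxb5. All 10 were listed among the 30733 gene symbols of the tables. The cells came from bone marrow and carried the label HSC (haematopoietic stem cell, the source of all blood lineages). The donors were wild-type (WT) mice given 5 Gy of total body irradiation, which both groups share. The sort split the cells by MHC class II (MHCII), which displays peptides to CD4 T cells, into 3 MHCII-hi and 3 MHCII-lo libraries. No unirradiated group was analysed here. The sources used here give no age, sex or strain of the mice, no sort gates, no time after irradiation and no statement on pooling. The labels do not say that replicates came from separate mice, so a p-value here measures spread among 3 libraries a group that may be purely technical. Values are FPKM (fragments per kilobase, relative to sequencing depth), given as mean ± SD over n = 3 libraries, and a log2 difference is the mean log2(FPKM + 1) of MHCII-hi libraries less that of MHCII-lo libraries.

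Several of these proteins work together on DNA. LMO2 binds no DNA itself and bridges the helix-loop-helix protein TAL1 to GATA factors through LDB1, and RUNX1 and the ETS protein ERG occupy many of the same blood stem cell enhancers as that complex. MEIS1 binds DNA as a partner of HOX proteins such as HOXA9, and the pair is known from self-renewal and from leukaemia. HLF, a PAR bZIP factor, and MECOM (also called EVI1), a zinc finger protein, are known for restriction to the most primitive HSCs, and Hoxb5 is used as a mark of long-term HSCs.

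The stem cell factors did not move as a block. Gata2, Meis1 and Runx1 rose in MHCII-hi cells, Hoxa9 fell, and Tal1, Lmo2, Erg and Hlf did not pass the test. Mecom and Hoxb5 lay under the minimum mean of 1 FPKM required for the test. The test was limma on log2(FPKM + 1) over 12110 genes, with a Benjamini-Hochberg adjusted p of 0.05 as the threshold. It called 58.6% of all tested genes, 25.5% higher and 33.1% lower, and 4 of the 8 tested stem cell factors, so that count is near the background. Values of MHCII-hi and MHCII-lo libraries were fully separate for 4 of the 8, against 65.8% of all tested genes (29.0% higher and 36.8% lower). The median log2 difference of the 8 was 0.15, and that of all tested genes was -0.04.

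The scale of the libraries bears on every small difference. Immunoglobulin transcripts took 23.8% to 24.0% of the summed FPKM in MHCII-hi libraries and 0.497% to 0.506% in MHCII-lo libraries. Scaling each library to its sum without these genes raised the median difference of all genes by 0.16, and 70.6% of the called genes were then higher, in place of 43.5%. Upper-quartile scaling gave 61.9% higher. Under the scaling without immunoglobulin genes all 8 tested factors passed, with 7 higher and Hoxa9 lower, against 58.2% of all tested genes, 41.1% higher and 17.1% lower. Measured from the median of all genes, the differences changed little between these scales: that of Gata2 was 0.84 as deposited and 0.85 without immunoglobulin genes, and that of Hoxa9 was -0.35 and -0.38. The distances of Tal1 from the median were 0.04 and 0.05, and those of Lmo2 were 0.02 and 0.05.

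**Figure D1:**
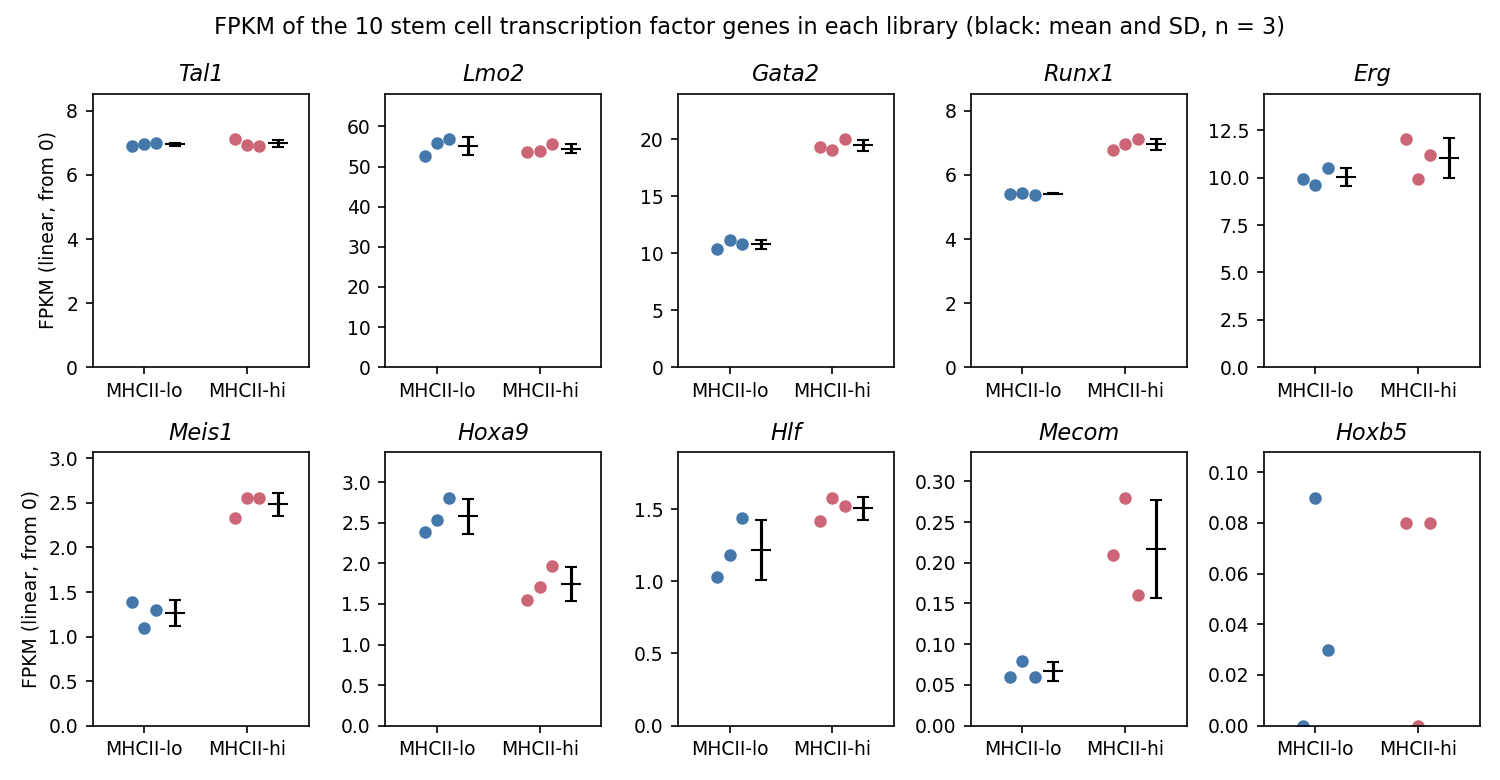
FPKM of each of the 10 genes (y axes, linear from 0, a separate scale per gene) in the 3 MHCII-lo libraries (blue) and the 3 MHCII-hi libraries (red), with the mean and SD in black except for Hoxb5. The groups stand apart for Gata2, Runx1, Meis1, Hoxa9 and Mecom and overlap for Tal1, Lmo2, Erg, Hlf and Hoxb5.

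The sequences just before the transcript starts of the factors that passed the test are shown so that their make-up can be compared with the values. The set of RefSeq promoters used here, on GRCm38.p6, held 14 starts for 8 of the 10 genes. It held none for Lmo2 and Hoxb5, which says nothing about RefSeq as a whole. Each line holds the 250 bases before a start, 5′ to 3′ on the gene's strand. Capitals mark matches, on either strand, to 5 motifs, none of which overlapped another. The letters searched were GATAA for the GATA family, TGTGGT for the RUNX family, CCGGAA for the ETS family, TGACAG for the MEIS family and CAGCTG for the E-box of helix-loop-helix factors, which reads the same on both strands. A match describes letters and is not a binding site by itself. Gata2 and Runx1 each have a distal and a proximal start, and values per gene do not tell which start was used.
Gata2 distal start, chr6:88193641-88193890, plus strand: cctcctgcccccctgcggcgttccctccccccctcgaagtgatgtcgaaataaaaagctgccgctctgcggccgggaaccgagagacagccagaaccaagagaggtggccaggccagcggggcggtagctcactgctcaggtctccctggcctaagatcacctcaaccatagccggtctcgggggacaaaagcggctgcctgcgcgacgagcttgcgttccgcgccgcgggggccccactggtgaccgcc
Gata2 proximal start, chr6:88198414-88198663, plus strand: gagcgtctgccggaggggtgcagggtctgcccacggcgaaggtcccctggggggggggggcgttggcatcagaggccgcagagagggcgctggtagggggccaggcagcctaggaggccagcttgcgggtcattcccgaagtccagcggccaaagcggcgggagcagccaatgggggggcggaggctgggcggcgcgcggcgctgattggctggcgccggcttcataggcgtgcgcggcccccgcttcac
Meis1, chr11:19018970-19019219, minus strand: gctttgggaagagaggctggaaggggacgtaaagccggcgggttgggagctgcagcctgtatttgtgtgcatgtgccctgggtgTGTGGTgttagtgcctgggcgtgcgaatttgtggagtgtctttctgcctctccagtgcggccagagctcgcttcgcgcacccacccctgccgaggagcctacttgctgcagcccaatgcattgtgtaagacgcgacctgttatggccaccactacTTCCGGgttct
Runx1 distal start, chr16:92826075-92826324, minus strand: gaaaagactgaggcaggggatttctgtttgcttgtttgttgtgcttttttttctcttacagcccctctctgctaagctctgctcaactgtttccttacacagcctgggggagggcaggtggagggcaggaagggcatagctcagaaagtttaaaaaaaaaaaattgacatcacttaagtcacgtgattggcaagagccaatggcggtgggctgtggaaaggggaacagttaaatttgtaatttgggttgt
Runx1 proximal start, chr16:92697330-92697579, minus strand: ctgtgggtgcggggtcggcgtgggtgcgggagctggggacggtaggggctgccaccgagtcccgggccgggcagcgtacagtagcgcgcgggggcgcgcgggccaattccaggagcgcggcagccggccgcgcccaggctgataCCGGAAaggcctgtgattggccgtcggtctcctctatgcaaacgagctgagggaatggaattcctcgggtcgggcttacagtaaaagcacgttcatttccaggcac
Hoxa9, chr6:52227371-52227620, minus strand: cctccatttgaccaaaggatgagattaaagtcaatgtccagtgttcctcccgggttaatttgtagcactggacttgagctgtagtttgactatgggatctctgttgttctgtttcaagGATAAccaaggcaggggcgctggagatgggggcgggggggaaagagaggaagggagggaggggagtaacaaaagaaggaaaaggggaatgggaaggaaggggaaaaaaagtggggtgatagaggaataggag
Meis1 held a RUNX match 166 to 161 bases and an ETS match 11 to 6 bases before its start. The proximal Runx1 start held an ETS match 106 to 101 bases upstream, and Hoxa9 held a GATA match 132 to 128 bases upstream. These letters were not in either Gata2 window or in the distal Runx1 window. Over all 32851 RefSeq windows of this length, 22.6% held the GATA letters, 14.0% the RUNX letters, 12.0% the ETS letters, 15.9% the MEIS letters and 13% the E-box. Guanine and cytosine made up 67.2% and 74.0% of the Gata2 windows, 45.6% of the distal Runx1 window, 67.6% of the proximal Runx1 window, 59.6% of the Meis1 window and 49.6% of the Hoxa9 window, against a median of 52.4% over all windows.

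Gata2, a zinc finger factor needed for HSC survival and also active in mast cell, basophil and eosinophil precursors, had the smallest p of the 10. Gata2 (ENSMUSG00000015053.14, GRCm38 chromosome 6, 88193891 to 88207032) measured 10.36, 11.17 and 10.78 FPKM in MHCII-lo and 19.34, 19.05 and 20.02 FPKM in MHCII-hi. Every MHCII-hi library was above every MHCII-lo library, and the gap was far wider than the spread within either group. The means were 19.5 ± 0.498 and 10.8 ± 0.405 FPKM, a 1.81-fold difference (log2 difference 0.80, SE 0.04, limma adjusted p = 6.28e-06). Of all tested genes, 92.3% had a smaller absolute difference. In bulk libraries, fewer cells that express a gene and less RNA per cell cannot be told apart.

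Gata1, the paralogue that takes over from Gata2 in erythroid differentiation and is also active in megakaryocytes, mast cells and eosinophils, rose as well. It stood at 8.58 ± 0.329 FPKM in MHCII-hi and 5.88 ± 0.446 FPKM in MHCII-lo (log2 difference 0.48, limma adjusted p = 0.000481). The ratio of Gata2 to Gata1 within a library was 1.70 to 2.05 in MHCII-lo and 2.22 to 2.32 in MHCII-hi, so Gata2 differed more than Gata1. Gata3, the T cell and innate lymphoid paralogue, stayed under the minimum at 0.730 ± 0.161 and 0.117 ± 0.0577 FPKM.

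Markers of basophils, mast cells and eosinophils moved in the same direction as Gata2. Of 22 listed genes 18 were tested, 17 rose, none fell and 1, Ms4a2, did not pass. Their median log2 difference was 1.11, and their summed level was 3369 to 3408 FPKM in MHCII-lo libraries and 8609 to 8779 FPKM in MHCII-hi libraries. The eosinophil granule gene Prg2 stood at 4902 ± 75.2 and 2024 ± 15.4 FPKM in MHCII-hi and MHCII-lo, and the basophil protease gene Mcpt8 at 298 ± 2.77 and 169 ± 2.86 FPKM. Ear6 and Ear1, ribonuclease genes of eosinophils that may exchange reads with near-identical copies, had log2 differences of 2.23 and 1.78. Cpa3, a carboxypeptidase gene of mast cells and basophils and a known GATA2 target, stood at 75.1 ± 2.77 and 50.8 ± 0.625 FPKM. The connective tissue mast cell protease gene Mcpt4 was listed at 0 in all 6 libraries, and Cma1 and Tpsab1 reached at most 0.16 FPKM. The part of these cells in the Gata2 difference was not tested.

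Meis1 had the largest fold of the 8 tested factors. This homeobox gene (ENSMUSG00000020160.18, chromosome 11, 18879817 to 19018985) stood at 1.39, 1.10 and 1.30 FPKM in MHCII-lo and at 2.33, 2.56 and 2.56 FPKM in MHCII-hi. The lowest MHCII-hi library lay well above the highest MHCII-lo library. The means were 2.48 ± 0.133 and 1.26 ± 0.148 FPKM, a 1.97-fold difference (log2 difference 0.62, SE 0.08, limma adjusted p = 0.000493). A same-strand transcript of unknown kind, Gm37818, shares an exon stretch with Meis1 and stood at 0.16 to 0.43 FPKM, with overlapping groups. Another, 2900018N21Rik, overlaps the gene without sharing an exon. It stood at 0.17, 0.14 and 0.14 FPKM in MHCII-lo and at 0.33, 0.36 and 0.60 FPKM in MHCII-hi, with no overlap. The other genes that overlap Meis1, 2610001A08Rik, Gm16140 and Gm16141, reached at most 0.17 FPKM.

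Hoxa9 went the other way. The gene of this homeobox factor, which sustains HSC and progenitor proliferation (ENSMUSG00000038227.15, chromosome 6, 52223100 to 52231089), stood at 2.39, 2.54 and 2.81 FPKM in MHCII-lo and at 1.55, 1.71 and 1.97 FPKM in MHCII-hi. The groups did not overlap, and MHCII-lo was 1.48-fold higher on average, at 2.58 ± 0.213 against 1.74 ± 0.212 FPKM (log2 difference -0.39, SE 0.08, limma adjusted p = 0.00656). The microRNA gene Mir196b lies on the same strand within the exons of Hoxa9 and reached at most 0.04 FPKM.

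The partners Meis1 and Hoxa9 therefore traded places in the order of levels. The ratio of Meis1 to Hoxa9 within a library, which does not depend on how libraries are scaled, was 0.582, 0.433 and 0.463 in MHCII-lo and 1.5, 1.5 and 1.3 in MHCII-hi. Its mean was 0.492 ± 0.0786 and 1.43 ± 0.116, a 2.91-fold difference. The pair was chosen after the values were seen. With 3 libraries against 3, a two-sided exact permutation test of a single ratio cannot go below p = 0.1.

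Other HOX genes were low. Of 26 listed HOX, PBX and MEIS genes and their chromatin regulators, 24 were listed in the tables, 14 of these lay under the minimum, and of the 10 tested 3 rose, 2 fell and 5 did not pass (median log2 difference 0.07). Without immunoglobulin genes in the scale 6 rose and 1 fell (median 0.23). Kmt2a, the histone methyltransferase that maintains HOX transcription, rose from 3.48 ± 0.0306 FPKM in MHCII-lo to 7.22 ± 0.371 FPKM in MHCII-hi (log2 difference 0.88, limma adjusted p = 1.08e-05). Dot1l, a histone methyltransferase that acts with KMT2A fusion proteins, had a log2 difference of 0.25. Hoxa7, beside Hoxa9 in its cluster, stood at 1.93 ± 0.0737 and 1.57 ± 0.123 FPKM in MHCII-hi and MHCII-lo. Its limma adjusted p of 0.0487 became 0.644 under quantile normalization. The HOX cofactor gene Pbx2 fell, with a log2 difference of -0.18, but this was -0.01 and did not pass when scaled without immunoglobulin genes. Hoxa10 reached at most 0.24 FPKM, and Hoxb4, a self-renewal factor, lay between 0.81 and 1.53 FPKM with overlapping groups. Meis2 was listed at 0 in all 6 libraries.

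Runx1 differed by a small and even amount. RUNX1, the DNA-binding subunit of core binding factor (ENSMUSG00000022952.17, chromosome 16, 92601466 to 92826149), is needed for HSC emergence and for lymphoid and megakaryocyte maturation. The gene stood at 5.42, 5.43 and 5.39 FPKM in MHCII-lo and at 6.78, 6.97 and 7.12 FPKM in MHCII-hi. The MHCII-lo libraries were nearly identical, and all MHCII-hi libraries lay above them. The means were 6.96 ± 0.17 and 5.41 ± 0.0208 FPKM, a 1.29-fold difference (log2 difference 0.31, SE 0.04, limma adjusted p = 0.000507). The antisense gene Gm26626, which shares exons with Runx1, was listed at 0 to 0.87 FPKM with overlapping groups.

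The subunit that stabilises RUNX proteins on DNA moved against Runx1. Cbfb fell from 57.2 ± 1.99 FPKM in MHCII-lo to 45.4 ± 0.394 FPKM in MHCII-hi (log2 difference -0.33, limma adjusted p = 0.000144), and the ratio of Runx1 to Cbfb was 0.0915 to 0.0987 and 0.15 to 0.155. Among the paralogues, Runx2, known from bone and from plasmacytoid dendritic cells, rose more than Runx1, to 9.09 ± 0.323 from 4.73 ± 0.104 FPKM. The ratio of Runx1 to Runx2 fell from 1.12 to 1.18 in MHCII-lo libraries to 0.75 to 0.792 in MHCII-hi libraries. Runx3, used in T and NK cells, stood at 9.02 ± 0.146 and 7.52 ± 0.310 FPKM (log2 difference 0.24). Lymphoid markers were higher beside these genes. Of 15 tested T and NK cell genes, 14 rose and Nkg7 did not pass, with a median of 1.36 and sums of 177 to 186 FPKM in MHCII-lo and 250 to 260 FPKM in MHCII-hi. In the dendritic cell list all 8 tested genes of 12 rose, with a median of 1.23 and sums of 53.7 to 55.0 and 105 to 114 FPKM. The part of such cells in the Runx1 difference was not tested.

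Tal1 and Lmo2, the helix-loop-helix factor and the bridging protein of the same complex, were at nearly the same level in both groups. Tal1 (ENSMUSG00000028717.12, chromosome 4, 115056426 to 115071755) stood at 6.89, 6.97 and 7 FPKM in MHCII-lo and at 7.12, 6.94 and 6.92 FPKM in MHCII-hi. The groups overlapped, and the log2 difference was 0.01 with a 95% interval of -0.08 to 0.09 (limma adjusted p = 0.875). Lmo2 (ENSMUSG00000032698.15, chromosome 2, 103957986 to 103981878) stood at 52.68, 55.80 and 56.83 FPKM in MHCII-lo and at 53.63, 53.87 and 55.73 FPKM in MHCII-hi. These values overlapped too, and the log2 difference was -0.02 with a 95% interval of -0.10 to 0.07 (limma adjusted p = 0.69). Without immunoglobulin genes in the scale both passed as higher, at 0.17 and 0.16, close to the shift of all genes. The ratio of Lmo2 to Tal1 was 7.65, 8.01 and 8.12 in MHCII-lo and 7.53, 7.76 and 8.05 in MHCII-hi, and its groups overlapped.

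**Figure D2:**
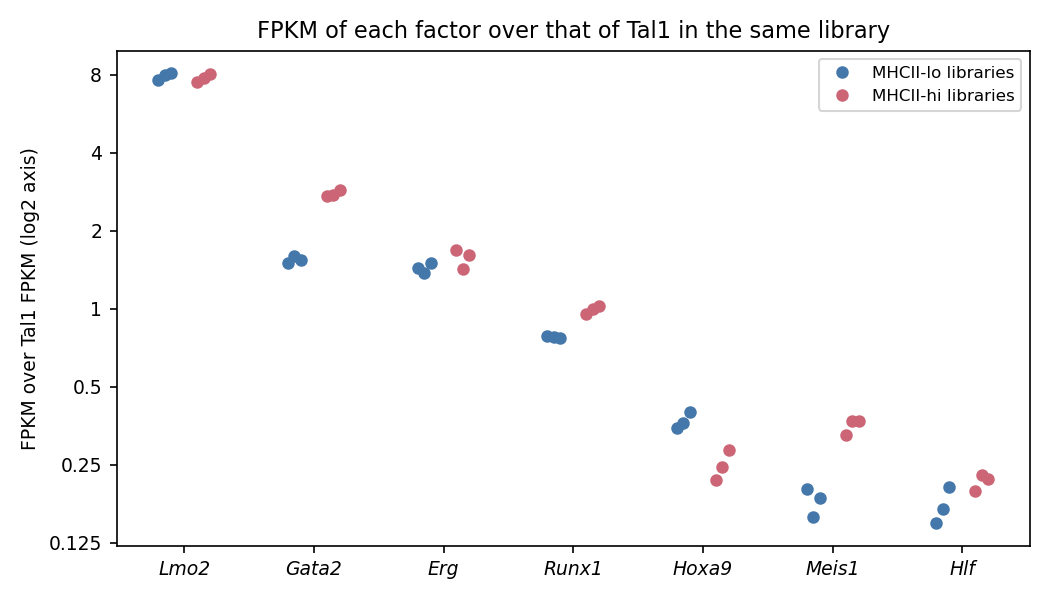
FPKM of 7 factors divided by the FPKM of Tal1 in the same library (y axis, log2 scale), for MHCII-lo (blue) and MHCII-hi (red) libraries, a measure that does not depend on library scaling. Gata2, at 1.5 to 1.6 and 2.72 to 2.89, Meis1, Runx1 and Hoxa9 separate the groups, and Lmo2, Erg and Hlf do not. Tal1 was chosen as the divisor after its values were seen.

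Erg, an ETS factor required for HSC maintenance and also active in endothelium, was slightly higher on average in MHCII-hi but did not pass. Erg (ENSMUSG00000040732.20, chromosome 16, 95359169 to 95586593) stood at 9.95, 9.64 and 10.54 FPKM in MHCII-lo and at 12.04, 9.95 and 11.20 FPKM in MHCII-hi. MHCII-hi replicate 2 fell among the MHCII-lo libraries. The log2 difference was 0.12 (SE 0.07, 95% interval -0.04 to 0.29, limma adjusted p = 0.167), and without MHCII-hi replicate 2 it was 0.19 with a limma adjusted p of 0.0292. It also passed when scaled without immunoglobulin genes. Of 18 listed endothelial genes 14 lay under the minimum, and Cldn5 was listed at 0 in all 6 libraries. Cdh5 and Kdr reached at most 0.44 and 0.08 FPKM. Of the 4 tested, Pecam1, Eng and Tie1 rose and Egfl7 did not pass, and the summed list was 15.9 to 16.2 FPKM in MHCII-lo and 25.5 to 26.8 FPKM in MHCII-hi. With no expression minimum 10 of the 18 were called in place of 3, against 28.4% of all genes in that fit. Pecam1, which many blood cells also express, stood at 12.2 ± 0.433 FPKM in MHCII-hi and 7.25 ± 0.308 FPKM in MHCII-lo. The part of endothelial cells in the Erg values was not tested.

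The other members of these complexes divided between both directions on the deposited scale. All 14 listed partners were tested: 7 rose, 3 fell and 4 did not pass, with a median log2 difference of 0.14. Without immunoglobulin genes in the scale 10 rose and 1 fell, with a median of 0.30. Cbfa2t3, the ETO2 corepressor of the TAL1 complex, rose from 3.29 ± 0.420 FPKM in MHCII-lo to 6.90 ± 0.289 FPKM in MHCII-hi (log2 difference 0.88, limma adjusted p = 0.000109). The bridging partner Ldb1 rose by 0.31 and the helix-loop-helix partners of TAL1, Tcf3, Tcf12 and Tcf4, by 0.17, 0.23 and 0.72. Tcf4, also a factor of plasmacytoid dendritic cells, stood at 2.12 ± 0.0757 and 0.903 ± 0.0493 FPKM in MHCII-hi and MHCII-lo. Lyl1, the close relative of Tal1, and Fli1, that of Erg, were lower in MHCII-hi as deposited, at 35.6 ± 0.577 against 41.2 ± 1.84 FPKM and at 23.6 ± 0.591 against 25.8 ± 0.393 FPKM. Neither passed when scaled without immunoglobulin genes, where Lyl1 was at -0.03 and Fli1 at 0.05, or with upper-quartile scaling. Within libraries, the ratio of Tal1 to Lyl1 was 0.162 to 0.178 in MHCII-lo and 0.192 to 0.199 in MHCII-hi, and that of Erg to Fli1 was 0.378 to 0.411 and 0.435 to 0.503. Of the 18 listed paralogues 9 were tested, 4 rose and 3 fell, among them the LIM-only gene Lmo4, at 21.2 ± 0.940 against 27.0 ± 0.392 FPKM. Without immunoglobulin genes in the scale 5 paralogues rose and 1 fell (median 0.18).

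**Figure D3:**
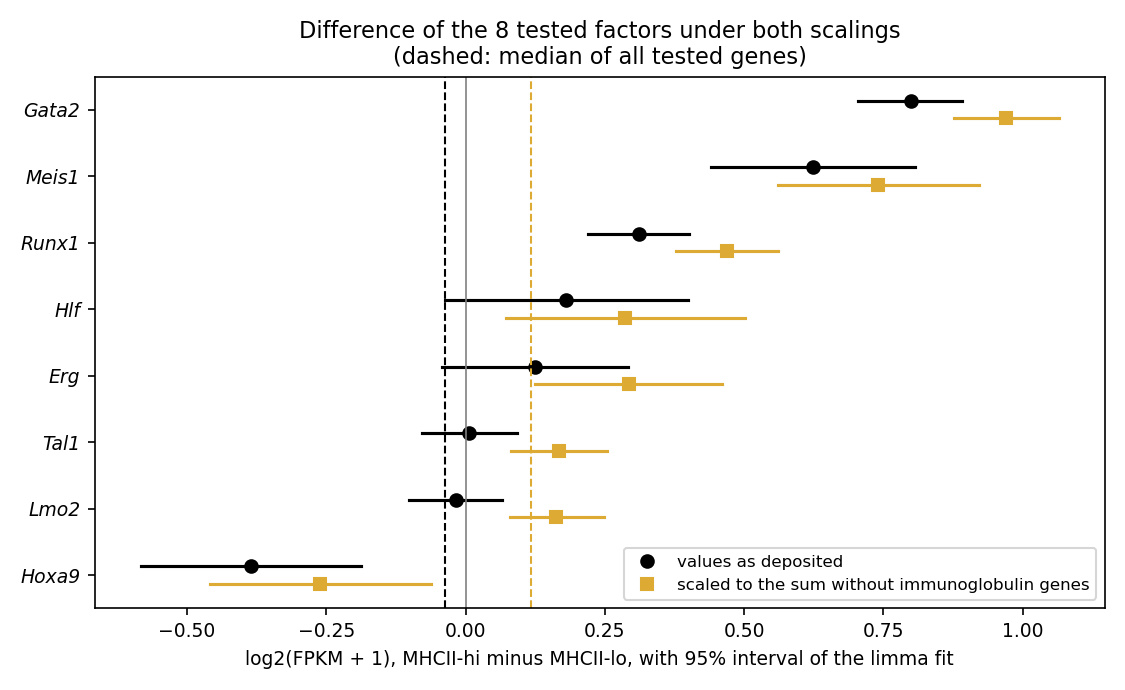
Log2 difference, MHCII-hi minus MHCII-lo, of the 8 tested factors (x axis) with the 95% interval of the limma fit, for values as deposited (black circles) and scaled to the sum without immunoglobulin genes (yellow squares). Dashed lines mark the median of all tested genes, at -0.04 and 0.12. Gata2, Meis1 and Runx1 lie to the right of both medians and Hoxa9 to the left.

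Of the factors that mark the most primitive HSCs, Hlf was low and Mecom and Hoxb5 were close to 0. Hlf (ENSMUSG00000003949.16, chromosome 11, 90336536 to 90390895) stood at 1.03, 1.18 and 1.44 FPKM in MHCII-lo and at 1.42, 1.58 and 1.52 FPKM in MHCII-hi. The highest MHCII-lo library lay above the lowest MHCII-hi library. The log2 difference of 0.18 did not pass (SE 0.09, 95% interval -0.04 to 0.40, limma adjusted p = 0.13), and it was 0.01 under quantile normalization and 0.29, past the threshold, without immunoglobulin genes in the scale. Its PAR bZIP relative Tef rose from 1.5 ± 0.0794 FPKM in MHCII-lo to 2.92 ± 0.225 FPKM in MHCII-hi (limma adjusted p = 0.000254). Dbp, the third of that family and an output gene of the circadian clock, lay under the minimum at 0.39, 0.27 and 0.73 FPKM in MHCII-lo and 1.16, 1.30 and 1.08 FPKM in MHCII-hi, with no overlap.

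Mecom (ENSMUSG00000027684.16, chromosome 3, 29951296 to 30548008) stood at 0.06, 0.08 and 0.06 FPKM in MHCII-lo and at 0.21, 0.28 and 0.16 FPKM in MHCII-hi. Every MHCII-hi library was higher, and the ratio of means was 3.25, at levels far under those of the other called factors. On the longest coding transcript and the depth estimated here, about 7.76 to 10.8 fragments lay behind each MHCII-lo value and 20.7 to 41.9 behind each MHCII-hi value. In a fit with no expression minimum, which called 28.4% of 27171 genes, the log2 difference was 0.19 (SE 0.04, limma adjusted p = 0.0206). That call ended without MHCII-lo replicate 1, 2 or 3 or MHCII-hi replicate 1, at limma adjusted p of 0.0699, 0.0557, 0.0705 and 0.0556, and held without MHCII-hi replicate 2 or 3. Prdm16, its close relative and also an HSC regulator, stood at 0.173 ± 0.0379 and 0.163 ± 0.0351 FPKM in MHCII-hi and MHCII-lo.

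Hoxb5 (ENSMUSG00000038700.4, chromosome 11, 96303336 to 96306121) was listed at 0, 0.09 and 0.03 FPKM in MHCII-lo and at 0.08, 0 and 0.08 FPKM in MHCII-hi. The values overlapped, each corresponded to about 5.05 fragments or fewer, and no difference was detectable at this depth (limma adjusted p = 0.807 with no expression minimum). An antisense gene, Hoxb5os, shares its exons and was listed at 0, 0 and 0 FPKM in MHCII-lo and 0, 0.39 and 0.11 FPKM in MHCII-hi. The library kit keeps the strand, but the sources used here do not say whether the values were made by strand, so reads of that pair may be mixed.

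The order of the mean levels was Lmo2, Gata2, Erg, Tal1, Runx1, Hoxa9, Meis1, Hlf, Mecom and Hoxb5 in MHCII-lo. In that group Gata2 and Erg overlapped, as did Meis1 and Hlf, and Mecom and Hoxb5. In MHCII-hi Meis1 stood above Hoxa9 without overlap, and the rest of the order was the same. There Gata2 was clear of Erg, Tal1 and Runx1 overlapped, and so did Hoxa9 and Hlf. Lmo2 had a higher mean than 92.5% of tested genes, Gata2 than 72.7%, Runx1 than 46.4% and Hlf than 6.2%.

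Known targets of these factors were mostly higher in MHCII-hi cells. Of 23 listed, 20 were tested, 13 rose, 4 fell and 3 did not pass, with a median log2 difference of 0.42. The receptor genes Flt3 and Kit stood at 15.2 ± 0.314 and 6.20 ± 0.265 FPKM and at 15.0 ± 0.101 and 12.6 ± 0.0751 FPKM in MHCII-hi and MHCII-lo. Sox4, a progenitor factor, rose to 10.03 ± 0.111 from 4.62 ± 0.286 FPKM, and Zfpm1, the GATA cofactor FOG1, rose to 8.36 ± 0.428 from 5.4 ± 0.398 FPKM. Nfe2, Gfi1, Spi1 and Myb fell, and Spi1, the myeloid and B cell factor PU.1, stood at 53.2 ± 1.86 against 76.6 ± 1.72 FPKM. Myb was at -0.18 as deposited and at 0.00 without immunoglobulin genes in the scale. Among 24 other transcription factors of stem and progenitor cells 18 were tested, 9 rose, 6 fell and 3 did not pass, with a median of 0.06, and without immunoglobulin genes in the scale 10 rose and 3 fell, with a median of 0.22. Foxo1, a stress and quiescence factor that lymphoid cells also use, had the largest log2 difference, at 1.09.

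**Figure D4:**
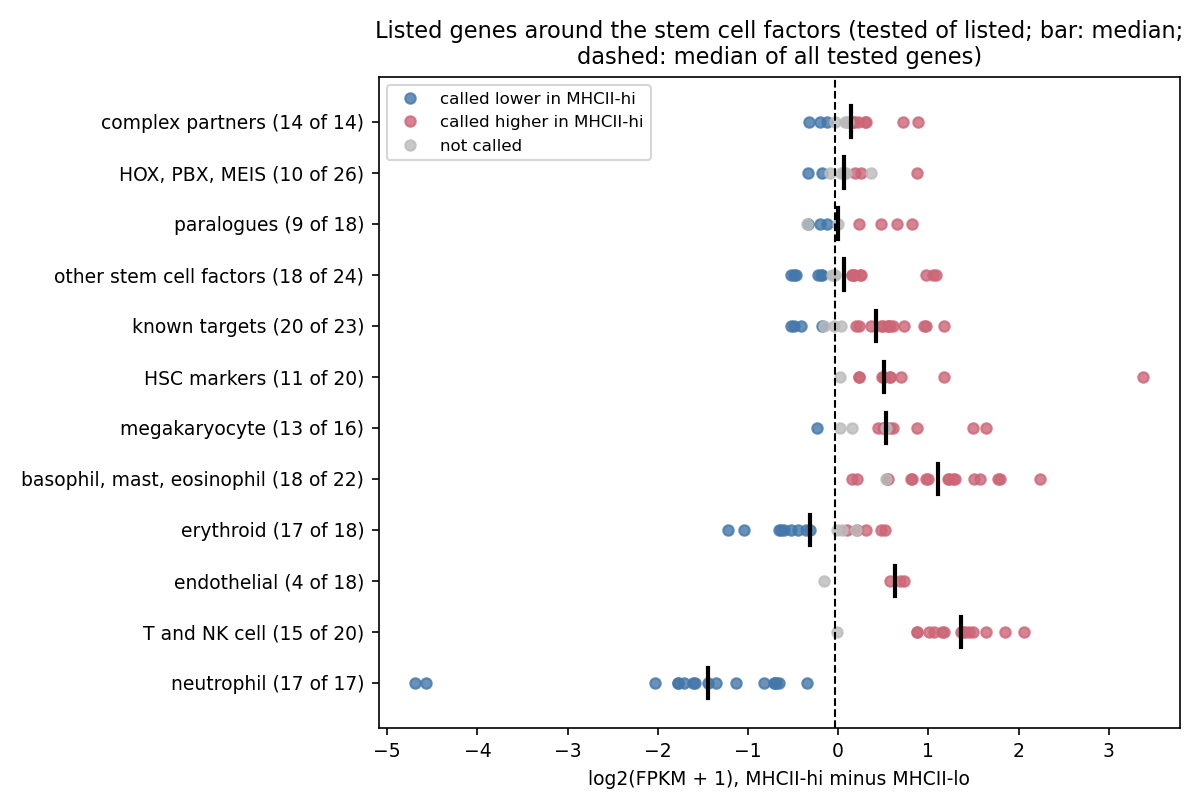
Log2 difference, MHCII-hi minus MHCII-lo (x axis), of each tested gene in 12 gene lists around the stem cell factors, coloured by the limma call, with each list's median as a black bar and the median of all tested genes, -0.04, as a dashed line. Complex partners and paralogues fall on both sides, known targets lie mostly to the right, and the 17 neutrophil genes lie to the left.

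The libraries as a whole held transcripts of many marrow cells. The class II genes followed the sort, with H2-Aa at 62.2 to 65.7 FPKM in MHCII-hi and 1.90 to 2.52 FPKM in MHCII-lo. Known HSC and progenitor markers stood at different levels: Procr, Slamf1 and Fgd5 reached at most 0.72, 0.47 and 0.20 FPKM, while Kit stood at 15.0 and 12.6 FPKM and Cd34 at 15.5 and 10.05 FPKM in MHCII-hi and MHCII-lo. The 17 neutrophil genes summed to 40900 to 41570 FPKM in MHCII-lo and 16450 to 16860 FPKM in MHCII-hi, and all 17 fell. Of 20 listed HSC and progenitor marker genes, 11 were tested, 10 rose and Pdzk1ip1 did not pass (median 0.51). Their sums were 146 to 151 FPKM in MHCII-lo and 235 to 241 FPKM in MHCII-hi. The genes that rose include Cd48, Flt3 and Cd34, so neither the count nor the sums measure long-term HSCs alone. Cd48 made up much of both sums, at 86.6 FPKM in MHCII-hi and 73.6 FPKM in MHCII-lo. In the same list Ly6a, the Sca-1 antigen, had a log2 difference of 3.38. Of its genes under the minimum, Slamf1, Fgd5, Esam and Robo4 were higher in MHCII-hi without overlap. Procr, Ctnnal1, Fgfr3, Gprc5c and Hoxb5 overlapped. Slamf1 stood at 0.38 to 0.47 FPKM in MHCII-hi and 0.18 to 0.31 FPKM in MHCII-lo, and Fgd5 at 0.07 to 0.20 and 0 to 0.02 FPKM. With no expression minimum 14 of the 20 were called, against 28.4% of all genes in that fit.

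Markers of megakaryocytes, in which Tal1, Gata2, Runx1 and Mecom are active, rose in 9 of 13 tested cases and fell in 1, Rap1b, which did not pass without immunoglobulin genes in the scale (list median 0.53). Their sums overlapped, at 236 to 242 FPKM in MHCII-lo and 240 to 245 FPKM in MHCII-hi, and Itga2b stood at 19.5 ± 0.903 against 12.4 ± 0.0379 FPKM. Markers of erythroid cells, which use Tal1, Lmo2 and Gata1, fell in 9 of 17 cases and rose in 5 (median -0.31), with sums of 641 to 657 and 500 to 507 FPKM, and in 7 and 6 cases without immunoglobulin genes in the scale. Neutrophil and monocyte progenitor genes fell in 8 of 11 cases and rose in 3 (median -0.35), with sums of 6247 to 6382 and 4391 to 4510 FPKM. Of 9 tested monocyte and macrophage genes 5 fell and 3 rose (median -0.30), with sums of 3252 to 3273 and 2229 to 2302 FPKM. Plasma cell genes rose in 11 of 13 cases and fell in 1, Fkbp11 (median 2.51), and all 5 tested B cell genes of 14 listed rose (median 1.93). Their sums were 418 to 444 and 21740 to 22330 FPKM for plasma cells, and 8.20 to 9.78 and 59.6 to 61.2 FPKM for B cells. The part of these cells in the stem cell factor values was not tested.

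Genes with the most similar profiles over the 6 libraries were sought by the root mean square difference of centred log2 values among all tested genes other than predicted genes, pseudogenes and immunoglobulin segments. Nearest to Gata2 were Zfp36, an RNA decay factor gene, at 0.0198, and the adhesion receptor gene Adgrg1, at 0.0216. Adgrg1, also called GPR56, stood at 27.5 ± 0.793 against 15.5 ± 0.569 FPKM. Nearest to Runx1 were Fxr2 and the histone demethylase gene Kdm5a, at 0.012 and 0.0124, and nearest to Meis1 were Gramd4 and Pcf11, at 0.0379 and 0.041. Hoxa9 lay nearest to Gmfb and Cmpk2, at 0.0313 and 0.0408. For Tal1 the nearest were Btg1 and Arap1, at 0.00681 and 0.0103, for Lmo2 Ppm1b and the kinase gene Fes, at 0.014 and 0.0157, for Erg Spg11 and Mib2, and for Hlf Slc37a1 and Alg13. All 6 points of such a profile share library scaling, and a profile over 2 groups follows mainly the difference between them.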

How the data were processed

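Stranded mRNA libraries were made from column-purified RNA of sorted cells, per the labels' protocols. Reads were handled with fastp, HISAT2 and StringTie on GRCm38 (mm10), per the submitters' processing notes. The sources used here give no versions, settings or annotation. The authors deposited 1 table per library, read as FPKM from the values, since the headers name no unit: values with 2 decimals, not whole. They summed to 332289 to 333021 in MHCII-lo libraries and to 382536 to 383600 in MHCII-hi libraries, so the sums differ by group. Depth, estimated from the smallest steps in single-exon genes of 100 to 400 bases within a window of 0.02 to 0.07 FPKM times kilobases, was about 2.27e+07 to 3.33e+07 fragments, and a step outside that window would have been missed. Of 30803 rows, 70 that shared a symbol with a higher row were dropped.

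The genes and lists were chosen with earlier results of these data known. All 12110 genes that averaged 1 FPKM or more entered a two-sided limma test (3.58.1, R 4.3.3) of log2(FPKM + 1), trend on, no covariate, with Benjamini-Hochberg adjustment. Such differences understate the change of low genes. The fit was tested on simulated data of 12110 genes, with 50 changed at each fold of 1.25, 1.5, 2 and 4. It recovered 48%, 64%, 86% and 94% of them, with 12 false calls, so small changes were often missed. The simulation had far fewer changed genes than these data and no shift of library scale, so it does not cover those conditions. Related genes and markers came from 18 lists; named were all 10 members, up to 3 called genes of each list with the smallest p, list genes that share a complex, family or marker role with a member, and the 2 nearest profiles of each tested member. Genes named outside that rule were chosen after their values were seen. Replicates differed by 2.58 to 3.41 times counting noise (median squared difference, genes with at least 200 estimated fragments) and were counted separately. Fragments for that ratio were estimated on the merged length of all exons of a gene, which can overstate the fragments and the ratio. Alternatives were leaving out each library, blocking on replicate number, pseudocount 0.1, no minimum and a minimum of 5 FPKM, 3 scalings, and limma without trend or robust. Coordinates come from GENCODE M21, promoters from RefSeq.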

Additional observations from a re-analysis of the deposited data

How the results depend on the processing

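Gata2, Meis1, Runx1 and Hoxa9 kept direction and call under every alternative in which they were tested; a minimum of 5 FPKM left Meis1, Hoxa9 and Hlf untested and 2 factors called. Leaving out 1 library each time gave ranges of 0.77 to 0.82 for Gata2, 0.57 to 0.66 for Meis1, 0.30 to 0.33 for Runx1, -0.44 to -0.33 for Hoxa9, 0.12 to 0.25 for Hlf (lowest without MHCII-lo replicate 1, highest without MHCII-lo replicate 3, in no case past the threshold), 0.067 to 0.193 for Erg (past the threshold without MHCII-hi replicate 2, with 5 factors then called against 4 otherwise) and 0.152 to 0.223 for Mecom with no minimum, whose call ended at 0.184, 0.198 and 0.184 without MHCII-lo replicate 1, 2 or 3 and at 0.192 without MHCII-hi replicate 1. Scaling without immunoglobulin genes brought Hlf (0.29), Tal1 (0.17), Lmo2 (0.16, from -0.02) and Erg (0.29) past the threshold, so that 8 were called. It gave 4994 higher and 2077 lower genes in place of 3084 and 4009. That scale raised the median of all genes by 0.16, and which scale is right was not tested. Measured from the median, Hlf was at 0.22 as deposited and 0.17 on that scale, and Erg at 0.16 and 0.18. Upper-quartile scaling gave 2401 lower genes, and a minimum of 5 FPKM gave 1792 higher genes among the 7327 tested. Counts of called genes in lists stayed within 1.5 times in 260 cases; the other 10 came from the expression minimum. The labels do not say whether libraries of the same number are paired. Same-numbered libraries had correlations of deviations from group means of -0.092, -0.004 and -0.035, and no library correlated best with its own number. With 3 libraries a group these correlations cannot exclude a pairing. With a replicate block 6638 genes and the same 4 factors were called, with Gata2 at 0.80. For Mecom and Hoxb5, alternatives beside the fit with no minimum were chosen after seeing the data. At the estimated depth, the MHCII-lo values of Mecom rest on about 10.8 fragments or fewer each.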
